A study of Mus musculus with 24 samples.

Results

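Integrins, cadherins and protocadherins are the adhesion receptors through which cells hold on to the matrix and to each other. They were taken here by symbol from a table of transcript counts in mouse dorsal root ganglia (DRG), which hold the cell bodies of sensory neurons together with glia. All symbols that begin with Itga or Pcdh, or that are Itgb or Cdh followed by a number, were members, and the most abundant transcript stood for each gene. This gave 80 genes of the 14066 named genes in the table, with 97 transcripts between them. The 80 genes were 11 integrin α and 6 integrin β subunits, 17 cadherins, 9 protocadherins outside the gene clusters, and 8, 21 and 8 protocadherins of the α, β and γ clusters. A total of 79 passed the filter on low counts, and Itga3, which was listed with only a short intron-retaining transcript, did not. Itgb4, Itgam, Itgb2, Itga2b and Cdh8 had no matching entry and were not analysed here.

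An integrin is a pair of 1 α and 1 β chain that binds laminin, fibronectin, collagen or a surface protein outside the cell and connects, through talin and kindlin, to actin inside. Regrowing axons of sensory neurons use laminin- and fibronectin-binding integrins to pull on the matrix of the nerve. Classical cadherins bind a like cadherin on the neighbouring cell and are anchored by catenins. Clustered protocadherins are chosen in different combinations by single neurons and let a neuron tell its own branches from those of others, while several protocadherins outside the clusters regulate actin through the WAVE complex.

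Every mouse had a crushed sciatic nerve, and no uninjured group was part of the design. Per the labels, mice of the strain C57B/L6, 12 weeks old, were given 2 mg/kg of camptothecin, which blocks DNA topoisomerase I, or vehicle by intraperitoneal injection 30 minutes after crushing. Whole ganglia were taken 18, 24 and 36 h after injury, with 3 camptothecin and 3 vehicle libraries at 18 h, 4 camptothecin and 3 vehicle libraries at 24 h, and 3 of each at 36 h. These are 19 of 24 labelled samples, and the other 5 were not analysed here. No label ties a sample to its own animal, and the p-values therefore cover only the differences among libraries, which may be technical.

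The tissue label was set against markers. All 12 listed sensory neuron genes were measured, and they summed to between 23352 and 37785 counts per M counts (CPM, with M for mega) in every library. Much of that sum was Nefl, with a mean of 15874 CPM in vehicle ganglia at 18 h, where Prdm12 had 240 and Prph 1.13 CPM. The sum thus shows neuronal RNA and does not by itself identify the ganglion. Camptothecin libraries were deeper, with 6.64 to 15 M counts against 3.62 to 8.32 M counts in vehicle libraries. They also leaned to GC-rich transcripts, with rank correlations between transcript GC content and a library's deviation from the mean level of between -0.074 and 0.334 against -0.321 to 0.066 in vehicle libraries. The 4 libraries numbered 4 stood apart from the rest, since their deviations from their group means correlated with each other at 0.226 to 0.455. Among marker lists for other cells, the erythroid list had the median log2 fold change farthest from 0, at -1.67 averaged over times. Of its 7 measured genes, 6 passed an edgeR adjusted p of 0.05 as lower after camptothecin, against 7.69% of all transcripts. The erythroid sum at 36 h was 4.73 to 14.5 CPM in camptothecin ganglia, against 41.5 to 111 CPM in vehicle ganglia. In whole ganglia, fewer cells of a type and less RNA per cell cannot be told apart.

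Promoters are shown for Pcdh10, Pcdh17 and Itga4, members with lower RNA after camptothecin, because the table of RefSeq promoters (GRCm38.p6) held for each a start at most 74 bases from that of the measured transcript. That table matched 30 of the 80 members. Each run covers 250 bases before to 50 bases after the start, 5′ to 3′ on the plus strand, and the capitals mark the GC box GGGCGG on either strand. They lie at chr3:45378148-45378447 for Pcdh10, chr14:84443313-84443612 for Pcdh17 and chr2:79255176-79255475 for Itga4.
Pcdh10: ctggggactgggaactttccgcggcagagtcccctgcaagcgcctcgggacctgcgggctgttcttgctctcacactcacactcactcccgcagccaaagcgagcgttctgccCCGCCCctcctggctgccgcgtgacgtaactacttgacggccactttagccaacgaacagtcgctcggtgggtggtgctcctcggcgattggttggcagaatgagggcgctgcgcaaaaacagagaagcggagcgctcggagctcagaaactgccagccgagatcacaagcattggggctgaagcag
Pcdh17: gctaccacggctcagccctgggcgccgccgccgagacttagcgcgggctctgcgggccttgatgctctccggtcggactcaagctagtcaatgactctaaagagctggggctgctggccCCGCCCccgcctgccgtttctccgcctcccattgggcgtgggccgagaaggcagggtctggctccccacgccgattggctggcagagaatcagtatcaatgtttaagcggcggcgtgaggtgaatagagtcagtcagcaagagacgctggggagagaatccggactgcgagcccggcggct
Itga4: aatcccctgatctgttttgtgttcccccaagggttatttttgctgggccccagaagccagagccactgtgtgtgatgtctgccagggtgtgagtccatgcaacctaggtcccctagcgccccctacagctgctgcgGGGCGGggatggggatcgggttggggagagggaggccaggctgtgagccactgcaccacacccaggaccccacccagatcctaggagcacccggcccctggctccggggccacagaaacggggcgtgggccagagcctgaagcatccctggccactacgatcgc
Each of the 3 windows held 1 GC box, at position -137 in Pcdh10, -131 in Pcdh17 and -114 in Itga4 relative to the start. A GC box stood in 35.7% of 32851 promoters of this length. The AP-1 site TGANTCA, found in 7.81% of promoters, and the CRE, spelled TGACGTCA and found in 1.79% of promoters, had no match on either strand in any of the 3. The same held for the E-box, spelled CACGTG, which 7.15% of promoters contain. It also held for the TATA box, searched for as TATAAA on both strands, which 13.6% of promoters contain. The Pcdh10 and Pcdh17 windows held 24 and 26 CpG dinucleotides and the Itga4 window 10, where the median promoter held 7.

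Levels per transcript length spanned from 91.1 CPM per kb for Itgb1, the β chain shared by most matrix-binding integrins, to 0.111 CPM per kb for Pcdh19, a δ protocadherin linked in humans to epilepsy. After Itgb1 came Pcdh9, a δ protocadherin, at 55.7 CPM per kb and Itga6, a laminin receptor chain, at 53.9 CPM per kb. Cdh11, a cadherin known from mesenchyme, followed at 51.1 CPM per kb, Itgb8, which pairs with αv and binds latent TGF-β, at 38.3 CPM per kb and Itga7, the laminin receptor chain known from injured sensory neurons, at 30.4 CPM per kb. Cdh19, the cadherin of Schwann cell lineage glia, stood at 27.1 CPM per kb and Cdh1 (E-cadherin) at 24 CPM per kb. Pcdh17 and Pcdh7 stood at 23 and 17.4 CPM per kb. In the clusters, the highest members were Pcdhac2 of the α cluster at 16.5 CPM per kb, Pcdhb17 of the β cluster at 10.1 CPM per kb and Pcdhgc3 of the γ cluster at 6.86 CPM per kb. The Itga6 value belongs to a 3-exon transcript from the end of the gene, which took more counts than the full-length one.

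**Figure D1:**
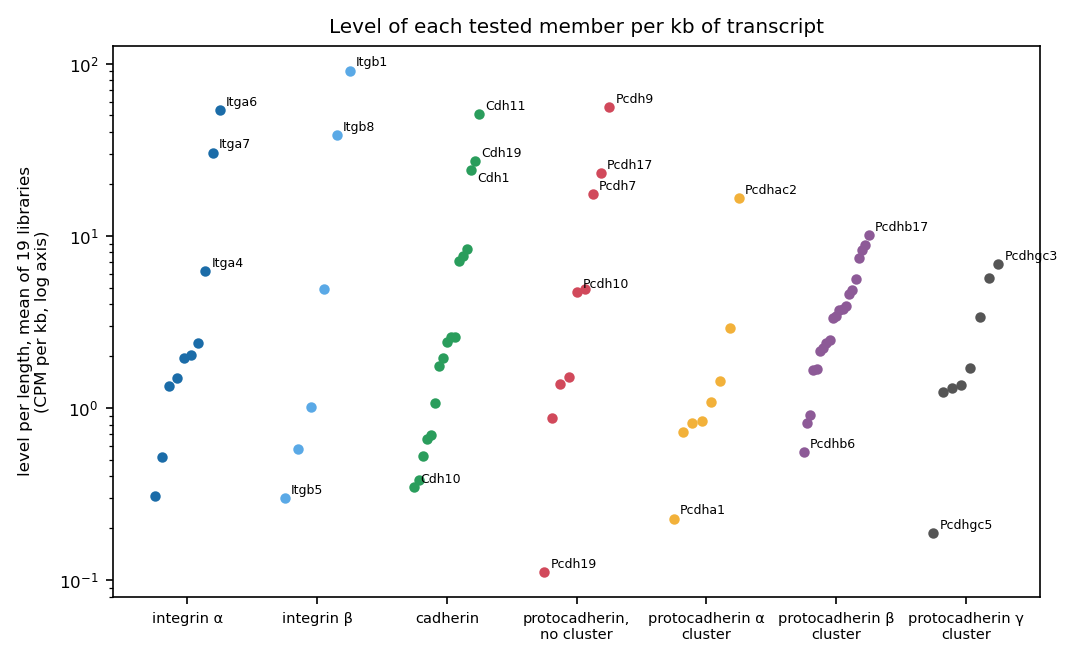
Level of each of the 79 tested genes per kb of transcript (mean of 19 libraries, log axis), arranged by family. Itgb1 stands highest at 91.1 CPM per kb and Pcdh19 lowest at 0.111 CPM per kb, and every family spans more than a 10-fold range.

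Averaged over the 3 times, 8 protocadherins were lower after camptothecin together with Itgb8, Itga4 and Cdh19, and 2 γ protocadherins were higher. Of 79 genes, 13 passed an adjusted p of 0.05 (16.5%), against a background of 10.3% of the 18606 transcripts tested (edgeR quasi-likelihood test, Benjamini-Hochberg adjusted over all transcripts). The 11 lower ones (background 7.69%) were Pcdh11x, Pcdh17, Pcdh10, Pcdhb9, Pcdhb21, Pcdhb19, Pcdhb20, Pcdhb3, Itgb8, Itga4 and Cdh19. The 2 higher ones (background 2.59%) were Pcdhga11 and Pcdhgb6. The median log2 fold change was -0.01 over the 79 genes and 0.01 over all transcripts. By family it was -0.26 in the β cluster, -0.17 in cadherins and -0.08 in protocadherins outside the clusters, and 0.22 in the γ cluster, 0.12 in integrin α chains, 0.11 in the α cluster and 0.07 in integrin β chains. With a correction for transcript GC content, 4 of the 79 passed (5.06%), against 4.52% of the 18213 transcripts with a known sequence, so that the share was near the background. Pcdh17, Pcdh10 and Pcdhb9 were lower and Itga6 was higher in that fit.

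**Figure D2:**
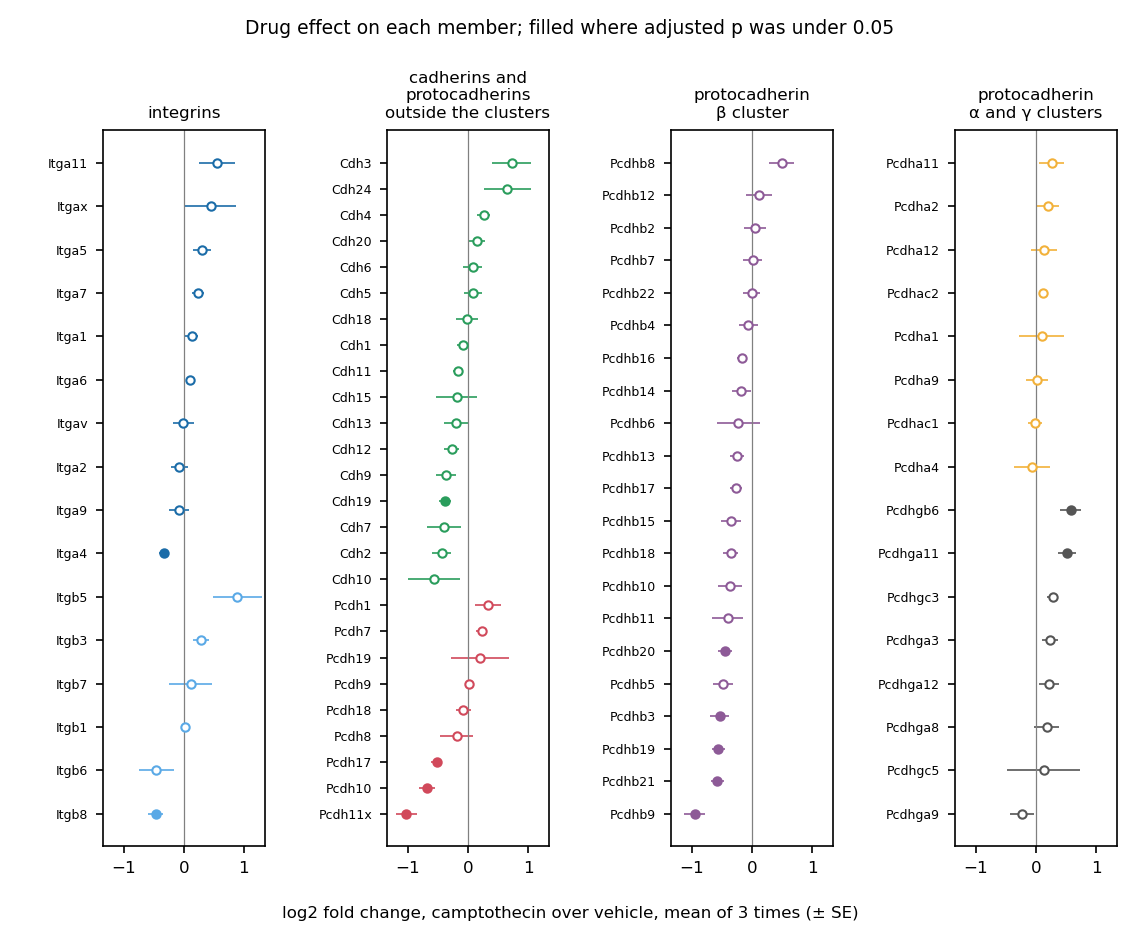
log2 fold change of camptothecin over vehicle, mean of 3 times, for each of the 79 tested genes (points, with the SE as bars), by family; filled points passed an edgeR adjusted p of 0.05. The 13 filled points include 11 below 0, from -1.02 for Pcdh11x to -0.32 for Itga4, and 2 above 0, Pcdhgb6 at 0.57 and Pcdhga11 at 0.51.

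Outside the clusters, 3 of 9 protocadherins fell after camptothecin, against 7.69% of all transcripts, and the other 6 did not pass the test. Pcdh11x, an X-linked δ protocadherin (chromosome X, 120290327 to 120910619, GRCm38, plus strand, a 6-exon transcript), was lower by about 1 log2 unit. At 18 h Pcdh11x had 8.92, 9.41 and 9.67 CPM in camptothecin ganglia, against 21.3, 20.1 and 18.5 CPM in vehicle ganglia. At 24 h Pcdh11x had 5.42, 9.34, 7.22 and 8.33 CPM in camptothecin ganglia, against 17.8, 8.49 and 13.6 CPM in vehicle ganglia. At 36 h Pcdh11x had 9.83, 6.21 and 4.34 CPM in camptothecin ganglia, against 15.1, 21.8 and 10.4 CPM in vehicle ganglia. The arms did not overlap at 18 h and 36 h, and at 24 h 1 vehicle library lay among the camptothecin libraries. The average log2 fold change of Pcdh11x was -1.02 ± 0.17 (SE; edgeR adjusted p = 0.000477). With the GC correction it was -0.56, with an edgeR adjusted p of 0.0719.

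Pcdh17, a δ protocadherin that binds the WAVE complex (chromosome 14, 84443563 to 84539002, plus strand, 4 exons), was the most abundant protocadherin to fall. At 18 h Pcdh17 had 286, 274 and 204 CPM in camptothecin ganglia, against 399.9, 370.2 and 253 CPM in vehicle ganglia. At 24 h Pcdh17 had 183, 213, 203 and 221 CPM in camptothecin ganglia, against 297, 241 and 247 CPM in vehicle ganglia. At 36 h Pcdh17 had 181, 216 and 189 CPM in camptothecin ganglia, against 390.4, 368 and 254 CPM in vehicle ganglia. Every camptothecin library was lower than every vehicle library at 24 h and 36 h, while at 18 h the lowest vehicle library lay inside the camptothecin range. The average log2 fold change was -0.52 ± 0.10 (SE; edgeR adjusted p = 0.00104), and with the GC correction it was -0.44 (edgeR adjusted p = 0.0156).

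Pcdh10, another protocadherin that recruits the WAVE complex and is known from growing axons (chromosome 3, 45378427 to 45423711, plus strand, 5 exons), showed much the same pattern at a lower level. At 18 h Pcdh10 had 35.1, 34.1 and 29.1 CPM in camptothecin ganglia, against 68.6, 54.5 and 34.6 CPM in vehicle ganglia. At 24 h Pcdh10 had 27.2, 34.2, 32.4 and 31.8 CPM in camptothecin ganglia, against 50.9, 35 and 40.2 CPM in vehicle ganglia. At 36 h Pcdh10 had 23.6, 28.2 and 27.4 CPM in camptothecin ganglia, against 55.6, 67.5 and 30.6 CPM in vehicle ganglia. Only at 18 h did 1 vehicle library fall among the camptothecin libraries. On average over times, Pcdh10 had a log2 fold change of -0.68 ± 0.13 (SE; edgeR adjusted p = 0.00173), and -0.51 with the GC correction (edgeR adjusted p = 0.0323). A second Pcdh10 transcript in the table was lower too, at -0.27 ± 0.08 (SE; edgeR adjusted p = 0.0371), and 1 more, with few counts, gave -0.80 ± 0.36 without passing (edgeR adjusted p = 0.171). Pcdh10 overlaps a gene on the opposite strand, and whether counting used strand is not given in the sources used here. In Pcdh11x, Pcdh17 and Pcdh10 alike, the vehicle library numbered 4 was the lowest of its group at 18 h and at 36 h, nearest to the camptothecin libraries.

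**Figure D3:**
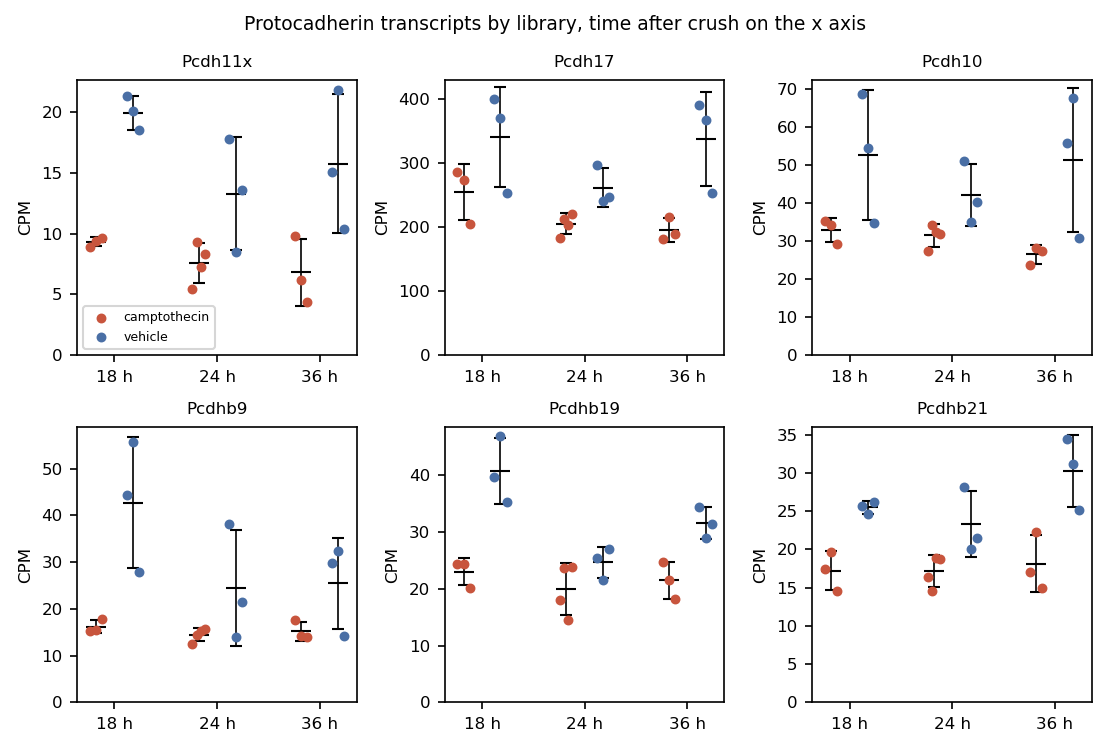
CPM of 6 protocadherins in each library (points) at 18, 24 and 36 h after crush, camptothecin left of vehicle, with the group mean and SD as bars; linear axes from 0. Pcdhb21 was lower in every camptothecin library at all 3 times, as were 1.42% of all transcripts. Pcdh11x had 8.92 to 9.67 CPM in camptothecin ganglia at 18 h, against 18.5 to 21.3 CPM in vehicle ganglia.

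Abundant Pcdh9 was nearly level between the arms. Its means were 217 ± 19.2 CPM in camptothecin ganglia and 206 ± 9.99 CPM in vehicle ganglia at 18 h, and 194 ± 7.9 and 196 ± 15.9 CPM at 36 h (SD, n = 3 each). Its average log2 fold change was 0.01 ± 0.06 (SE; edgeR adjusted p = 0.933). Pcdh7, a δ protocadherin, averaged 0.23 ± 0.09 (SE) without passing (edgeR adjusted p = 0.124). The less abundant of its 2 measured transcripts, with 2 exons, was lower after camptothecin, at -0.75 ± 0.18 (SE; edgeR adjusted p = 0.00921). Without the libraries numbered 4, the abundant Pcdh7 transcript passed as higher, at 0.29 (edgeR adjusted p = 0.0407). Pcdh1, Pcdh8, Pcdh18 and Pcdh19 gave log2 fold changes between -0.19 and 0.34, none past the test.

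The β cluster on chromosome 18 holds genes that, all but 1 of the 21, consist of a single exon. After camptothecin 5 of its 21 members fell and 0 rose, where 7.69% of all transcripts were lower and 2.59% higher. Of the 21 log2 fold changes, 17 lay below 0, against 9085 of 18606 over all transcripts. The summed level of the 21 members was 272 to 304 CPM in camptothecin ganglia at 18 h, against 359 to 416 CPM in vehicle ganglia. At 24 h the sum was 265 to 306 CPM in camptothecin ganglia, against 315 to 383 CPM in vehicle ganglia. At 36 h it was 296 to 342 CPM in camptothecin ganglia, against 351 to 448 CPM in vehicle ganglia. The sum was therefore lower in every camptothecin library than in any vehicle library of its time. Of single transcripts, 1.42% did the same, and sums over other sets of transcripts were not compared. The sum carries no GC correction, and the arms differed in GC trend. With the GC correction the median over the 21 members was -0.14, with 15 of 21 below 0. The share of all transcripts below 0 in that fit is not given here.

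Pcdhb9 changed most in this cluster. It had 15.3, 15.4 and 17.8 CPM in camptothecin ganglia at 18 h, against 44.4, 55.8 and 28 CPM in vehicle ganglia. At 24 h Pcdhb9 had 12.6, 14.4, 15.3 and 15.7 CPM in camptothecin ganglia, against 38.2, 14 and 21.5 CPM in vehicle ganglia. At 36 h Pcdhb9 had 17.6, 14.2 and 14 CPM in camptothecin ganglia, against 29.8, 32.4 and 14.3 CPM in vehicle ganglia. The camptothecin libraries stayed within a narrow band, and vehicle libraries spread above it, with 1 vehicle library inside that band at 24 h and at 36 h. Pcdhb9 had an average log2 fold change of -0.95 ± 0.17 (SE; edgeR adjusted p = 0.000908), and it was also -0.95 with the GC correction (edgeR adjusted p = 0.00247).

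Pcdhb21 was the only member of the 79 with every camptothecin library below every vehicle library at all 3 times. That is 1.27% of members, near the 1.42% of all transcripts. At 18 h Pcdhb21 had 17.4, 19.7 and 14.6 CPM in camptothecin ganglia, against 25.7, 24.6 and 26.2 CPM in vehicle ganglia. At 24 h Pcdhb21 had 16.4, 14.6, 18.9 and 18.8 CPM in camptothecin ganglia, against 28.2, 20.1 and 21.5 CPM in vehicle ganglia. At 36 h Pcdhb21 had 17.1, 22.3 and 15 CPM in camptothecin ganglia, against 34.4, 31.2 and 25.1 CPM in vehicle ganglia. The gap was smallest at 24 h. Its average log2 fold change was -0.58 ± 0.11 (SE; edgeR adjusted p = 0.00104), and -0.37 with the GC correction, where it no longer passed (edgeR adjusted p = 0.0501).

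Pcdhb19 had 24, 24 and 20.2 CPM in camptothecin ganglia at 18 h, against 39.7, 46.8 and 35.3 CPM in vehicle ganglia. At 24 h Pcdhb19 had 18, 23.6, 14.5 and 23.8 CPM in camptothecin ganglia, against 25.3, 21.6 and 26.9 CPM in vehicle ganglia. At 36 h Pcdhb19 had 24.6, 21.5 and 18 CPM in camptothecin ganglia, against 34.4, 28.9 and 31.3 CPM in vehicle ganglia. The arms were apart at 18 h and 36 h and overlapped at 24 h. On average over times, Pcdhb19 had a log2 fold change of -0.56 ± 0.11 (SE; edgeR adjusted p = 0.00131), with -0.29 after the GC correction (edgeR adjusted p = 0.14). Pcdhb20 averaged -0.45 ± 0.12 (SE; edgeR adjusted p = 0.0167) and Pcdhb3 -0.54 ± 0.16 (SE; edgeR adjusted p = 0.0373). Neither Pcdhb20 nor Pcdhb3 passed with the GC correction, and Pcdhb3 passed in 8 of 19 fits that each left out 1 library. Abundant Pcdhb17 and Pcdhb16 averaged -0.26 ± 0.10 and -0.16 ± 0.08 (SE), both short of the threshold. The highest value of the cluster was that of Pcdhb8, at 0.49 ± 0.21 (SE; edgeR adjusted p = 0.141). Members of this cluster resemble each other in sequence, with a median of 4.82% of their 50-base words found in another member, so their reads are mostly but not wholly their own.

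In the γ cluster, 2 of 8 members rose and 0 fell, where 2.59% of all transcripts were higher and 7.69% lower. Of the 8 log2 fold changes, 7 lay above 0, against 9521 of 18606 over all transcripts. A second, less abundant Pcdhga8 transcript averaged -0.29 ± 0.28 (SE; edgeR adjusted p = 0.575), where the counted one gave 0.18. Members of the α and γ clusters share their constant last exons, so that a median of 57.85% (α) and 44.85% (γ) of their 50-base words occur in another member, and no label or file says how counting split such reads. The summed γ level was 97.2 to 124 CPM in camptothecin ganglia at 18 h, against 78 to 91.4 CPM in vehicle ganglia. At 24 h it was 92.1 to 118 CPM in camptothecin ganglia, against 89.1 to 102 CPM in vehicle ganglia. At 36 h it was 115 to 121 CPM in camptothecin ganglia, against 91.2 to 102 CPM in vehicle ganglia. The arms overlapped only at 24 h, and the direction was the opposite of that in the β cluster. The γ sum carries no GC correction either. The median GC content was 53.1% in the γ cluster and 46.3% in the β cluster, and the part of GC content in these sums was not tested. With the GC correction the median over the 8 members was 0.12, against 0.22 without it. Since last exons are shared, the 8 values and their sum may not be separate measurements.

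Pcdhga11 had 20.6, 22.9 and 16.8 CPM in camptothecin ganglia at 18 h, against 14, 10.8 and 11.3 CPM in vehicle ganglia, and the arms overlapped at 24 h and 36 h. Its average log2 fold change was 0.51 ± 0.15 (SE; edgeR adjusted p = 0.0311). Pcdhgb6 had 10.3, 8.71 and 5.54 CPM in camptothecin ganglia at 18 h, against 3.21, 4.23 and 5.2 CPM in vehicle ganglia, and averaged 0.57 ± 0.17 (SE; edgeR adjusted p = 0.037). Pcdhga11 passed in 10 and Pcdhgb6 in 9 of 19 fits that each left out 1 library, and neither passed with the GC correction (edgeR adjusted p = 0.127 and 0.151). Pcdhgc3, a broadly expressed C-type member, stood just short of the threshold at 0.28 ± 0.09 (SE; edgeR adjusted p = 0.0538). In the α cluster 0 of 8 passed, and log2 fold changes ran from -0.06 to 0.26. A second Pcdha11 transcript averaged -0.24 ± 0.25 (SE; edgeR adjusted p = 0.621), where the counted one gave 0.26. The main member of the α cluster, Pcdhac2, had 116, 102 and 102 CPM in camptothecin ganglia at 36 h, against 86.6, 87.8 and 78.3 CPM in vehicle ganglia. At 18 h Pcdhac2 had 92.5, 105 and 91.8 CPM in camptothecin ganglia, against 109, 91.8 and 96.3 CPM in vehicle ganglia. The Pcdhac2 arms were apart at 36 h and overlapped at 18 h, and the 36 h difference of 0.35 ± 0.12 (SE) did not pass (edgeR adjusted p = 0.148).

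Among integrins, 1 of 10 α chains and 1 of 6 β chains fell after camptothecin and 0 rose. Over all transcripts, 7.69% were lower and 2.59% higher. Itgb8 (chromosome 12, 119158022 to 119238802, minus strand, 14 exons) had 294, 236 and 255 CPM in camptothecin ganglia at 18 h, against 417, 469.9 and 259 CPM in vehicle ganglia. At 24 h Itgb8 had 301, 255, 264 and 244 CPM in camptothecin ganglia, against 372, 282 and 281 CPM in vehicle ganglia. At 36 h Itgb8 had 336, 240.3 and 282 CPM in camptothecin ganglia, against 498, 549.9 and 282 CPM in vehicle ganglia. Of the 3 vehicle libraries, 1 lay within the camptothecin range at 18 h and at 36 h and 2 at 24 h, and the others lay above it. Itgb8 had an average log2 fold change of -0.47 ± 0.12 (SE; edgeR adjusted p = 0.0134), and with the GC correction it was -0.16 (edgeR adjusted p = 0.563).

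Itga4, the chain of the fibronectin and VCAM-1 receptor (chromosome 2, 79255500 to 79333123, plus strand, 28 exons), had 58.1, 49.2 and 41.8 CPM in camptothecin ganglia at 18 h, against 65.4, 79.9 and 65.3 CPM in vehicle ganglia. At 24 h Itga4 had 60, 48.1, 60.9 and 44.2 CPM in camptothecin ganglia, against 59.8, 57.9 and 61.8 CPM in vehicle ganglia. At 36 h Itga4 had 67.8, 53.1 and 59.7 CPM in camptothecin ganglia, against 72.7, 68.3 and 80.7 CPM in vehicle ganglia. The arms were apart at 18 h and 36 h. On average over times, Itga4 had a log2 fold change of -0.32 ± 0.08 (SE; edgeR adjusted p = 0.0164), but -0.05 with the GC correction (edgeR adjusted p = 0.852), and without the libraries numbered 4 it was -0.24 (edgeR adjusted p = 0.0849). Itga4 is also carried by leukocytes, and the summed level of 9 macrophage markers was 166 to 229 CPM in camptothecin ganglia at 36 h, against 119 to 203 CPM in vehicle ganglia, while at 18 h it was 69.4 to 97 CPM in camptothecin ganglia, against 84.6 to 120.3 CPM in vehicle ganglia. Mrc1 made up much of that sum, with means of 135 CPM in camptothecin ganglia and 99.7 CPM in vehicle ganglia at 36 h. Of the 9 markers, 2 were lower on average over times, Ccr2 at -1.40 ± 0.28 and Csf1r at -0.96 ± 0.22 (SE; edgeR adjusted p = 0.00226 and 0.00654), and 0 were higher. The shares over all transcripts were 7.69% lower and 2.59% higher. The part of these cells in the Itga4 result was not tested. Itga4 overlaps Cerkl on the opposite strand.

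The laminin receptor chains did not pass the drug test with edgeR at any time. Itga7 (chromosome 10, 128933818 to 128958282, plus strand, 25 exons) had 97.5, 87.6 and 142 CPM in camptothecin ganglia at 18 h, against 68.6, 89.7 and 57.4 CPM in vehicle ganglia. At 24 h Itga7 had 122, 129, 122 and 137 CPM in camptothecin ganglia, against 110.4, 143 and 119 CPM in vehicle ganglia. At 36 h Itga7 had 145, 172 and 142 CPM in camptothecin ganglia, against 134, 129 and 171 CPM in vehicle ganglia. The arms overlapped at every time, and at 18 h the log2 fold change was 0.60 ± 0.18 (SE; edgeR adjusted p = 0.087). DESeq2 called that 18 h difference, at 0.64 with an adjusted p of 0.0132. Without the libraries numbered 4 the 18 h difference of Itga7 was 0.25 (edgeR adjusted p = 0.469). Itgb1 had 277, 298 and 326 CPM in camptothecin ganglia at 18 h, against 285, 363 and 231 CPM in vehicle ganglia, and its average log2 fold change was 0.03 ± 0.08 (SE; edgeR adjusted p = 0.878). Itga6 averaged 0.11 ± 0.08 (SE; edgeR adjusted p = 0.446) and passed as higher only with the GC correction, at 0.34 ± 0.09 (SE; edgeR adjusted p = 0.0359). Its full-length transcript gave 0.17 ± 0.14 (SE; edgeR adjusted p = 0.502).

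**Figure D4:**
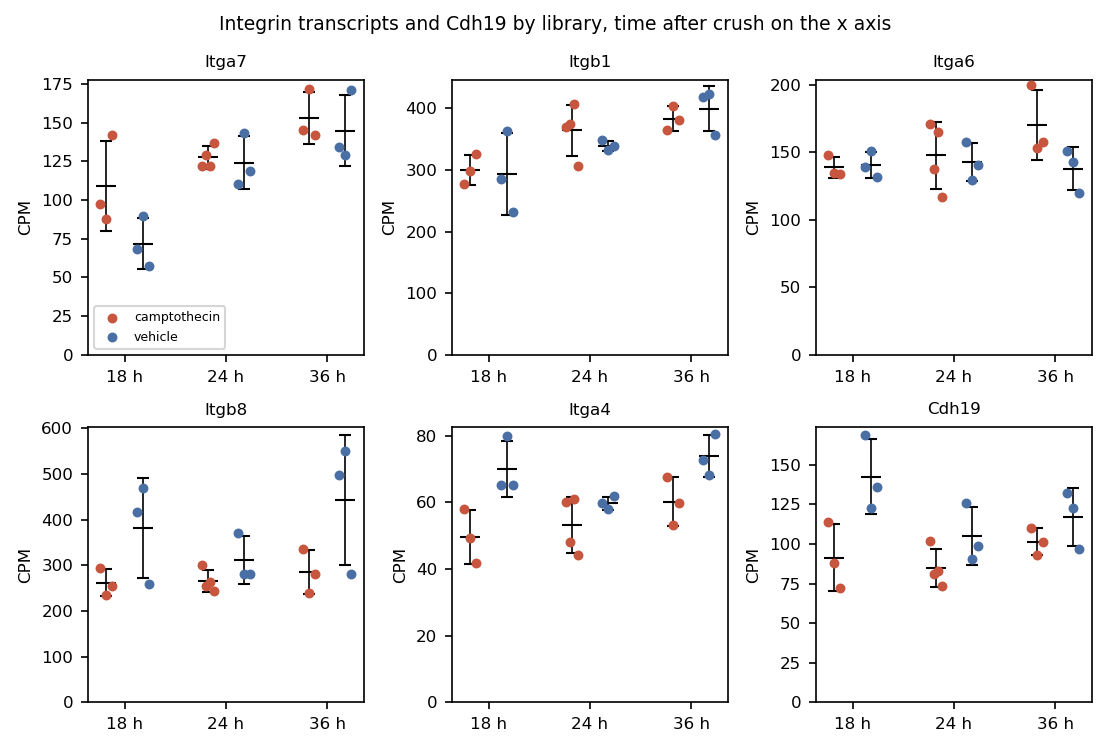
CPM of 5 integrin genes and Cdh19 in each library (points) at 18, 24 and 36 h after crush, camptothecin left of vehicle, with the group mean and SD as bars; linear axes from 0. Itga7 in vehicle ganglia stands at 57.4 to 89.7 CPM at 18 h and at 129 to 171 CPM at 36 h.

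Of the other integrin chains, Itgav, which pairs with several β chains, averaged -0.01 ± 0.17 (SE) and Itga9, a tenascin-C receptor chain, -0.08 ± 0.16 (SE). Itga5, the fibronectin receptor chain, averaged 0.31 ± 0.15 (SE; edgeR adjusted p = 0.219). Collagen-binding Itga1 and Itga2 averaged 0.13 ± 0.12 and -0.07 ± 0.14 (SE). Itgb3 had 51.4, 30.2, 43.9 and 29.4 CPM in camptothecin ganglia at 24 h, against 23.2, 27.3 and 23.9 CPM in vehicle ganglia. Itgb3 was the single member with all camptothecin libraries higher at 24 h (1.27%), a smaller share than the 3.83% of all transcripts. Its 24 h log2 fold change of 0.64 ± 0.22 (SE) did not pass (edgeR adjusted p = 0.372). Itgb5 had 16, 16 and 4 counts in camptothecin libraries at 18 h, against 1 count in each vehicle library, which is too few for a fold change. Itga11, Itgax, Itgb6 and Itgb7 had mean levels of 1.25 to 4.84 CPM and did not pass.

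Of 17 cadherins, 1 fell and 0 rose, near the shares of all transcripts, of which 7.69% were lower and 2.59% higher. Cdh19 (chromosome 1, 110888326 to 110977363, minus strand, 12 exons) had 114, 87.8 and 72.2 CPM in camptothecin ganglia at 18 h, against 169, 123 and 136 CPM in vehicle ganglia. At 24 h Cdh19 had 102, 81.4, 82.9 and 73.6 CPM in camptothecin ganglia, against 126, 90.8 and 98.7 CPM in vehicle ganglia. At 36 h Cdh19 had 110.3, 93.3 and 101 CPM in camptothecin ganglia, against 132, 123 and 96.8 CPM in vehicle ganglia. The arms were apart at 18 h and overlapped later. Cdh19 had an average log2 fold change of -0.38 ± 0.10 (SE; edgeR adjusted p = 0.0129), but with the GC correction it turned to 0.10 (edgeR adjusted p = 0.738). Its transcript is among the poorest in GC of all members, at 37.4%. The summed level of 7 satellite glia markers was 1387 to 1859.8 CPM in camptothecin ganglia at 18 h, against 1541 to 2431 CPM in vehicle ganglia, and that of 10 Schwann cell and myelin markers 1829 to 3098 CPM in camptothecin ganglia, against 2468 to 3213 CPM in vehicle ganglia. Their part in the Cdh19 result was not tested.

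The most abundant cadherin, Cdh11, averaged 267 ± 36 CPM in camptothecin ganglia and 319 ± 35.4 CPM in vehicle ganglia at 18 h (SD, n = 3 each), with an average log2 fold change over times of -0.17 ± 0.08 (SE; edgeR adjusted p = 0.197). Cdh1 averaged -0.08 ± 0.10 (SE). Cdh2, N-cadherin, averaged -0.44 ± 0.16 (SE) and stood short of the threshold (edgeR adjusted p = 0.0888), with its arms apart at 24 h. Cdh5, the cadherin of endothelium, averaged 0.08 ± 0.15 (SE) and Cdh13, T-cadherin, -0.20 ± 0.20 (SE). Cdh4 averaged 0.26 ± 0.11 (SE; edgeR adjusted p = 0.143) and Cdh12 -0.27 ± 0.13 (SE; edgeR adjusted p = 0.201).

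At single times, fewer members passed. At 18 h 2 of 79 were lower and 0 higher, against a background of 1.58% of transcripts called in either direction, 1.26% lower and 0.317% higher: Pcdhb9 at -1.40 ± 0.31 (SE; edgeR adjusted p = 0.0326) and Pcdhb19 at -0.82 ± 0.19 (SE; edgeR adjusted p = 0.0354). At 24 h 0 passed with edgeR, as for all transcripts (background 0%). At an unadjusted p under 0.05 there were 9 of 79 members at 24 h, against 7.98% of transcripts, and DESeq2 called 1, Pcdhb20, at -0.74 (adjusted p = 0.0293). At 36 h 4 of 79 were lower and 0 higher, against 2.5% in either direction, 2.32% lower and 0.188% higher. These were Pcdh17 at -0.79 ± 0.17 (SE; edgeR adjusted p = 0.0156), Pcdh10 at -0.94 ± 0.24 (SE; edgeR adjusted p = 0.0355), Pcdhb21 at -0.73 ± 0.19 (SE; edgeR adjusted p = 0.0396) and Pcdh11x at -1.19 ± 0.31 (SE; edgeR adjusted p = 0.0453). In the authors' deposited table, Pcdh11x, Pcdhb9 and Pcdhb19 passed as lower at 18 h and Pcdh11x, Pcdh17 and Pcdhb21 at 36 h. These are 3 of 80 members at each time, against 1.85% of 19571 transcripts at 18 h and 2.07% at 36 h. Pcdh10 did not pass there at 36 h (deposited limma adjusted p = 0.0602).

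Most of these single-time calls were lost when 1 library was left out. Pcdhb9 and Pcdhb19 at 18 h, and Pcdh10 and Pcdh11x at 36 h, each passed in 1 of the 6 fits that left out 1 library of the compared groups. Pcdh17 and Pcdhb21 at 36 h passed in 2 of 6. The log2 fold changes stayed below 0 in these fits, between -1.63 and -1.13 for Pcdhb9 at 18 h and between -0.95 and -0.66 for Pcdh17 at 36 h. Calls over all transcripts fell too, to as few as 1 at 18 h and 1 at 36 h. At 18 h, 10 of 79 members had every camptothecin library below every vehicle library and 8 had every one above, against 11% and 8.07% of all transcripts. At 24 h these were 5 below and 1 above, against 5.2% and 3.83%. At 36 h they were 9 below and 11 above, against 8.7% and 9.6%. Members thus separated the arms about as often as other transcripts did.

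The drug effect was also set against itself between times. Comparing 36 h with 18 h, 0 of 79 members had an effect that differed (edgeR; background 0.0107%), with 3 at an unadjusted p under 0.05, against 4.95% of all transcripts, and 0 with DESeq2. Itga7 was among the 3, with a difference in drug effect, 36 h minus 18 h, of -0.53 ± 0.25 (SE) on the log2 scale (edgeR adjusted p = 0.986). The others were Pcdhac2, whose effect was 0.38 ± 0.17 (SE) greater at 36 h (edgeR adjusted p = 0.986), and Itgb5, on few counts.

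With time after injury, 1 member rose in vehicle ganglia. Itga7 had 134, 129 and 171 CPM at 36 h, against 68.6, 89.7 and 57.4 CPM at 18 h, so that every 36 h library lay above every 18 h library. Its log2 fold change was 1.01 ± 0.18 (SE; edgeR adjusted p = 0.00298), it passed in all 6 fits that left out 1 library of these groups, and with the GC correction it was 0.95 (edgeR adjusted p = 0.00658). That is 1 of 79, against a background of 1.44%, with 1.01% higher and 0.43% lower. Itgb1 had 418, 423 and 357 CPM at 36 h, against 285, 363 and 231 CPM at 18 h, with 0.45 ± 0.14 (SE) and no call by edgeR (adjusted p = 0.118), while DESeq2 called it (adjusted p = 0.0197). In camptothecin ganglia Itga7 had 145, 172 and 142 CPM at 36 h, against 97.5, 87.6 and 142 CPM at 18 h, with 0.49 ± 0.17 (SE; edgeR adjusted p = 0.259). Itga7 also overlaps a gene on the opposite strand, Mettl7b.

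At 24 h against 18 h in vehicle ganglia, 0 of 79 passed with edgeR (background 0.231%, with 0.161% higher and 0.0699% lower), 10 had an unadjusted p under 0.05 (12.3% of all transcripts did) and DESeq2 called 2, Itga7 at 0.81 (adjusted p = 0.00197) and Pcdhb19 at -0.70 (adjusted p = 0.0186). In camptothecin ganglia 0 passed at 24 h against 18 h (background 0%), with 5 at an unadjusted p under 0.05, against 5.05% of all transcripts, and 0 with DESeq2. At 36 h against 18 h in camptothecin ganglia, 0 passed with edgeR (background 0.511%), 13 had an unadjusted p under 0.05 (11.2% of all transcripts did), and DESeq2 called 2, Cdh12 at -0.71 (adjusted p = 0.0477) and Cdh1 at -0.56 (adjusted p = 0.0425). Cdh1 had 91.1, 69.6 and 87.5 CPM in camptothecin ganglia at 36 h, against 135, 131 and 97.6 CPM at 18 h, with no overlap. Without the libraries numbered 4, Itga7 at 0.72 (edgeR adjusted p = 0.00909) and Cdh1 at -0.69 (edgeR adjusted p = 0.00634) passed in camptothecin ganglia as well.

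A property the choice of members did not use followed the drug effect: transcript GC content. Over the 79 members, GC content and the average log2 fold change had a rank correlation of 0.649, and over 18213 transcripts with a known sequence it was 0.465. Over the 42 members outside the clusters it was 0.668. The members share libraries, and the arms differed in GC trend and in depth, so this is a description. Called members such as Cdh19 (37.4% GC), Pcdh11x (37.8%), Itgb8 (40.4%) and Itga4 (41.1%) are GC-poor, and Pcdhgb6 (53.8%) and Pcdhga11 (52.5%) are GC-rich. By family, the median was 46.3% in the β cluster and 53.1% in the γ cluster. The length of the gene in the genome gave rank correlations of 0.207 over members, -0.18 over the 42 members outside the clusters and -0.071 over all transcripts.

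**Figure D5:**
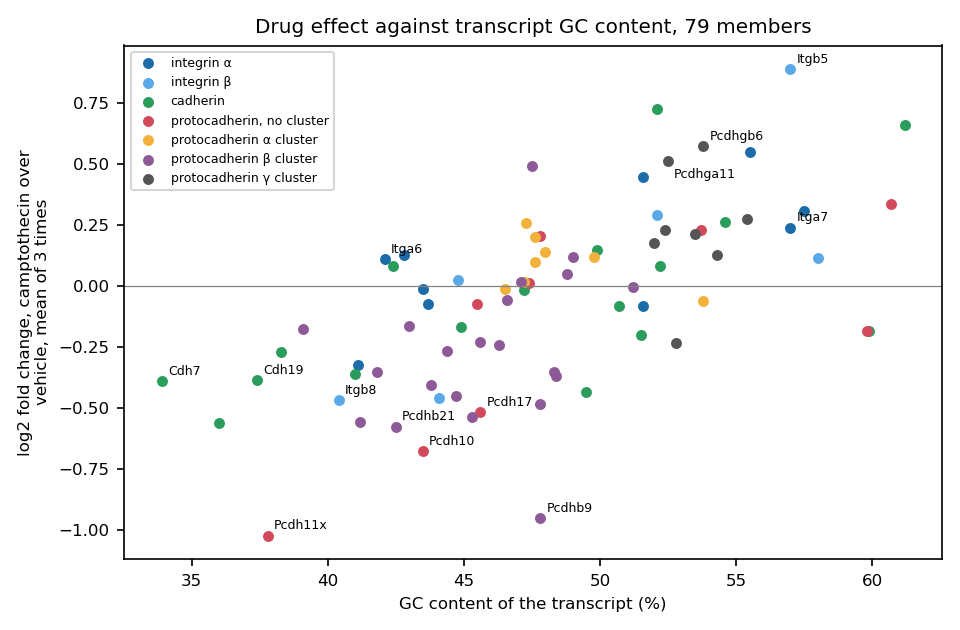
Average log2 fold change of camptothecin over vehicle (y axis) against transcript GC content in percent (x axis) for the 79 tested genes, coloured by family. GC-poor members such as Pcdh11x (37.8%) and Cdh19 (37.4%) lie below 0 and GC-rich γ members such as Pcdhgb6 (53.8%) above, with a rank correlation of 0.649.

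The intracellular partners were read from lists of adaptors. Of 25 tested integrin adaptors, 2 were higher and 2 lower on average over times, where 2.59% of all transcripts were higher and 7.69% lower, with a median log2 fold change of 0.05, against 0.01 over all transcripts. Tln1, the talin that switches integrins on, was higher at 0.39 ± 0.07 (SE; edgeR adjusted p = 0.000626), with means of 145 CPM in camptothecin ganglia and 93.3 CPM in vehicle ganglia at 18 h. Zyx, a focal adhesion protein, was higher at 0.45 ± 0.11 (SE; edgeR adjusted p = 0.00853). Rap1a and Rap1b, small GTPases that promote talin binding, were lower at -0.66 ± 0.14 and -0.44 ± 0.11 (SE; edgeR adjusted p = 0.00294 and 0.0126). Of 21 tested catenins and other cadherin partners, 1 was higher and 3 lower against the same shares, with a median of 0.13. Ctnnb1, β-catenin, was lower at -0.76 ± 0.17 (SE; edgeR adjusted p = 0.00517), from a low level, and Adam10, the protease that sheds cadherin ectodomains, was lower at -0.73 ± 0.15 (SE; edgeR adjusted p = 0.00329). Fat3, a giant cadherin outside the symbol rule, was lower at -0.23 ± 0.07 (SE; edgeR adjusted p = 0.0263), and Cyfip2, a WAVE complex subunit, was higher at 0.55 ± 0.16 (SE; edgeR adjusted p = 0.0324). All partner values are from the reported fit only, and whether these calls hold in the alternative fits was not examined. With the GC correction, calls over all transcripts fell from 1913 to 824.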

How the data were processed

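RNA of whole ganglia was sequenced from both ends after amplification to cDNA, per the labels' protocols, which also speak of immunoprecipitated or flow-through RNA. The authors deposited for 19571 Ensembl transcripts 1 raw count and 1 variance-stabilised log2 value per sample, and log2 fold changes and p-values of camptothecin against vehicle, per the file headers. CASAVA 1.8.2, limma and mm10 are named in the submitters' processing notes, and which aligner, counter, strand setting and annotation were used is not given in the sources used here. Column letters A and B had no legend; B was taken as camptothecin because the deposited log2 fold changes equalled B minus A (largest difference 8.7e-14 at 18 h, against 4.32 with letters exchanged). Counts of genes with a short or intron-retaining chosen transcript (Itga6, Itga3, Cdh10) are those of that transcript only.

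Testing of the deposited counts used edgeR 4.0.16 (R 4.3.3): filterByExpr (min.count 10, min.total.count 15) left 18606 transcripts and dropped 965, TMM set the scaling, and a single quasi-likelihood fit held 6 group means over 19 libraries (13 residual degrees of freedom). Tests were two-sided and Benjamini-Hochberg adjusted over all transcripts, with a threshold of 0.05. CPM used TMM-scaled totals. The 291 transcripts without a symbol held 0.501 to 0.568% of counts and stayed in. Replicates differed by more than sampling of reads gives (chi-square divided by its degrees of freedom 3.31 to 22.8). Lengths, GC content and positions came from GENCODE on GRCm38 (mm10), matched by transcript for 97.8% of the table. Scripts were tested on simulated data. Alternatives were DESeq2 1.42.0, RLE scaling, no filter, a replicate block, a per-library GC correction (smoothed with a span of 0.3), counts thinned to 3617718 per library, counts summed per gene, and leaving out libraries. Members and lists were chosen with earlier results of these data known. Genes were named where they passed, or ranked first by p where few passed in a direction, or for a known role or a high level; other named members were chosen after their values were seen. The test design was drawn up for all 24 labelled samples and applied to the 19 with values.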

Additional observations from a re-analysis of the deposited data

How the results depend on the processing

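Counts of the 79 members past the threshold moved as follows. For the drug effect at 18 h, 2 in the reported fit, the count was 9 with DESeq2, 0 with the GC correction, 1 with the GC correction and replicate block, 4 after thinning, 5 with counts summed per gene and 4 without the libraries numbered 4, an alternative chosen after seeing the data. Leaving out 1 library gave 0 to 6, with 0 without 18 h vehicle replicate 1 or 3 or any of the 18 h camptothecin replicates and 6 without 36 h vehicle replicate 4. For the drug effect at 24 h, 0, it was 1 with DESeq2 and 0 otherwise. For the drug effect at 36 h, 4, it was 0 with the GC correction, 2 with the GC correction and replicate block, 2 after thinning, and 0 to 6 leaving out 1 library, with 0 without 36 h vehicle replicate 2 or 3 or 36 h camptothecin replicate 1 or 3. For the drug effect averaged over times, 13, it was 4 with the GC correction, 7 with the GC correction and replicate block, 15 with DESeq2, 17 without the libraries numbered 4, and 10 to 16 leaving out 1 library. For vehicle at 24 h against 18 h, 0, it was 2 with DESeq2, 1 with RLE scaling, 1 with the replicate block, 1 after thinning, 2 without the libraries numbered 4, and 0 to 1 leaving out 1 library. For vehicle at 36 h against 18 h, 1, it was 2 with DESeq2, 2 with the GC correction and replicate block, and 1 to 2 leaving out 1 library. For camptothecin at 36 h against 18 h, 0, it was 2 with DESeq2, 1 with the GC correction and replicate block, 3 without the libraries numbered 4, and 0 to 1 leaving out 1 library. The cause of these shifts was not tested. Camptothecin at 24 h against 18 h and the difference of the drug effect between 36 h and 18 h kept 0 members throughout.

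The drug effect on Cdh19 averaged over times reversed to 0.0996 with the GC correction and to 0.0788 with the GC correction and replicate block, and the cause was not tested. It was the only reversal among named called values. Changes of sign in values that passed in neither fit were not counted as reversals. Of 20 named called values, 16 no longer passed with the GC correction, 11 with the GC correction and replicate block, 5 after thinning, 2 without the libraries numbered 4 and 0 with DESeq2, RLE scaling, no filter, the replicate block or summed counts.

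Same-numbered libraries of the same time deviated together with correlations of -0.21 to 0.226, while those numbered 4 reached 0.455 across times. From the same-time values the numbers were not taken to pair samples, and the replicate block is given here only. With it, the drug effect passed for 3 members at 18 h, 5 at 36 h and 14 averaged over times. Depth limits the weakest members: with 3 or 4 libraries a group and vehicle libraries down to 3.62 M counts, genes at a few counts per library, such as Itgb5, Pcdh19 and Pcdhgc5, could not show moderate differences.

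Over all transcripts tested, which number 18606 in the reported fit and 18213 with the GC correction, the drug effect at 18 h passed for 294 in the reported fit, 961 with DESeq2, 506 with counts summed per gene, 499 after thinning, 484 without the libraries numbered 4, 131 with the GC correction and replicate block and 23 with the GC correction. At 24 h it passed for 0, 124 with DESeq2 and 165 without the libraries numbered 4. At 36 h it passed for 466, 974 with DESeq2, 845 with the replicate block, 1080 without the libraries numbered 4 and 62 with the GC correction. Averaged over times it passed for 1913, and for 824 with the GC correction. Leaving out 1 library gave 1 to 723 at 18 h, 0 to 92 at 24 h, 1 to 1015 at 36 h and 1427 to 2503 averaged over times. For vehicle at 24 h against 18 h, 43 passed, and 22 (GC correction) to 360 (DESeq2) under the alternatives that kept all libraries. For vehicle at 36 h against 18 h, 268 passed, 571 with DESeq2 and 99 without the libraries numbered 4. For camptothecin at 36 h against 18 h, 95 passed, 383 with DESeq2, 148 with counts summed per gene and 210 without the libraries numbered 4.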
